A study of Mus musculus with 8 samples.

Results

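Prostaglandin E2 signalling was described through the genes that make, degrade and receive the lipid, in basal cells of mouse back skin epidermis. The genes were chosen by name, as the listed enzymes and receptors Ptgs1, Ptgs2, Ptges, Ptges3, Hpgd, Ptgr1, Ptger2, Ptger3 and Ptger4. Of these 9 genes, 8 had at least 1 probe set whose only gene symbol was theirs, with 15 such probe sets in all, out of 17097 genes measured. Where a gene had several, the probe set with the highest mean over the 8 arrays led. Ptgs1, the constitutive cyclooxygenase, was not analysed here.

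The cells came from CD1 mice, an outbred strain, and were sorted as ITGA6-positive and CD34-negative, with 300 cells and 1 array for each mouse. The EXPD4 group comprised 3 mice whose back skin had been expanded by force and was taken at day 4. The TPA group comprised 2 mice treated with 12-O-tetradecanoylphorbol-13-acetate, an activator of protein kinase C; the dose and duration are not given in the sources used here. The CTRL group comprised 3 untreated mice. The gate takes interfollicular and infundibulum cells together and leaves out CD34-positive bulge cells. No genotype or transgene is named for any group, and mouse age is not given in the sources used here.

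Cyclooxygenases turn arachidonic acid, which phospholipases A2 release from membranes, into prostaglandin H2, and terminal synthases such as the product of Ptges convert that into prostaglandin E2. The enzyme encoded by Hpgd oxidises and inactivates prostaglandin E2, and the product of Ptgr1 acts on the oxidised form. The lipid is received by the EP receptors, of which EP2 (Ptger2) and EP4 (Ptger4) raise cyclic AMP and EP3 (Ptger3) lowers it. In mouse skin, cyclooxygenase 2 (Ptgs2) is known as a gene induced by phorbol ester, wounding and growth factors.

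Signals are given on the log2 scale after RMA, the authors' normalization, so a difference of 1 is a doubling of signal, and probe sets differ in brightness, so that no gene's level is set against another's. Background was read from 79 olfactory, vomeronasal and trace amine receptor genes, and their 95th percentile on each array (6.37 to 6.55) served as a background limit. Differences are given ± SE with p-values of a limma fit over all 8 arrays, adjusted by Benjamini-Hochberg over the 17097 genes, and a gene was called at an adjusted p under 0.05. Levels are means ± SD. The number of arrays, with 2 in the TPA group, limits the precision. In sorted bulk samples, fewer cells of a type and less RNA per cell cannot be told apart.

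The basal keratins Krt5 and Krt14 were at 13.23 to 13.34 on every array, and Cd34 was under the background limit on all 8. Of 8 basal and gate markers, Itga6 and Itgb4 were called lower and Krt15 higher in both EXPD4 and TPA against CTRL. The differences were -0.47 ± 0.07 and -0.69 ± 0.08 for Itga6, the sort marker, and -0.38 ± 0.06 and -0.32 ± 0.07 for Itgb4. For Krt15 they were 1.23 ± 0.09 and 2.38 ± 0.10. The arrays labelled TPA went against their label for genes known to be induced by phorbol ester. Odc1, ornithine decarboxylase, averaged 8.99 ± 0.09 in TPA arrays and 11.34 ± 0.02 in CTRL arrays (SD, n = 2 and 3), and the stress keratins Krt6a and Krt16 were also lower in TPA arrays (-0.69 ± 0.09 and -0.89 ± 0.07). Arrays are therefore named by their labels, and if the labels of TPA and CTRL had been exchanged, every sign of TPA against CTRL below would turn and the comparisons of EXPD4 with CTRL and with TPA would trade places. Of 7 suprabasal markers, 4 (Krt1, Krt10, Dsg1a and Krtdap) were called higher in EXPD4 against CTRL and the same 4 in TPA against CTRL. Lor and Sbsn did not pass, nor did Ivl, with differences of -0.33 ± 0.13 in EXPD4 and -0.48 ± 0.15 in TPA against CTRL (adjusted p = 0.168 and 0.0532). The mean signal of the 7 was 10.57 to 10.68 in EXPD4 arrays, 10.53 to 10.61 in TPA arrays and 9.62 to 10.00 in CTRL arrays. Macrophage and neutrophil markers averaged 5.92 to 5.94 in EXPD4 arrays, 5.86 to 5.88 in TPA arrays and 6.06 to 6.74 in CTRL arrays, with 4 of 8 under the limit on every array. Langerhans cell markers averaged 6.44 to 6.49 in EXPD4 arrays, 6.30 to 6.31 in TPA arrays and 6.56 to 7.07 in CTRL arrays, with 3 of 7 under the limit throughout, the defining marker Cd207 among them. All 6 T cell markers and 6 of 7 mast cell markers were under the limit on every array. Of 5 bulge and follicle markers none was called, and 2 were under the limit on every array. Their mean signal was 6.96 to 7.92 in EXPD4 arrays, 8.01 to 8.08 in TPA arrays and 7.67 to 8.16 in CTRL arrays. Krt79, 1 of them, read 10.57, 10.04 and 7.51 in EXPD4 arrays. It read 10.76 and 11.53 in TPA arrays, and 10.03, 11.30 and 10.11 in CTRL arrays. Of 6 fibroblast markers, 3 were under the limit on every array, and only Dcn was called. It was higher in TPA against CTRL arrays (1.69 ± 0.23, adjusted p = 0.00117) and lower in EXPD4 against TPA arrays (-1.14 ± 0.23, adjusted p = 0.0261). None of 3 measured sebaceous markers was called. The part of all these cells in the results below was not tested.

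The start-site windows of 4 genes are shown because the results turn on them, Ptgs2 and Ptges as synthesis genes that were lower, and Hpgd and Ptger4 as an inactivating enzyme and a receptor that were higher, in TPA against CTRL arrays. Each holds 250 bases before and 50 bases after the annotated start, from RefSeq on mouse build GRCm38.p6, 5′ to 3′ on the gene's strand. Capitals mark matches on either strand to a set of short motifs, namely the GC box GGGCGG, the cyclic AMP response (CRE) motif ACGTCA, the E-box CACGTG, the C/EBP palindrome TTGCGCAA and the TATA box TATAAA. The AP-1 site TGANTCA and an NF-kB site were searched too and matched in none of the windows of the 8 genes, beside 7.81% and 0.411% of all windows.
Ptgs2, chr1:150099781-150100080, plus strand: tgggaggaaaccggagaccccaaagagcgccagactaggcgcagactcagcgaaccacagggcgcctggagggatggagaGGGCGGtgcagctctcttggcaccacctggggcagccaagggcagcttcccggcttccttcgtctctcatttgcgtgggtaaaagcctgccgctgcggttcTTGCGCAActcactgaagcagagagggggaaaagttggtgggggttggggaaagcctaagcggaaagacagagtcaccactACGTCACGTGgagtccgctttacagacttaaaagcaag
Ptges, chr2:30903248-30903547, minus strand: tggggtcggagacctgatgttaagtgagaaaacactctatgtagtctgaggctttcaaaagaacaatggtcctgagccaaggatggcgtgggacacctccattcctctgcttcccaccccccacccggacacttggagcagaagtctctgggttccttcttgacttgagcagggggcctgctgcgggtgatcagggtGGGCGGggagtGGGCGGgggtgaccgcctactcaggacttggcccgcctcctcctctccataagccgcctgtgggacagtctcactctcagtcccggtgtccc
Hpgd, chr8:56294302-56294601, plus strand: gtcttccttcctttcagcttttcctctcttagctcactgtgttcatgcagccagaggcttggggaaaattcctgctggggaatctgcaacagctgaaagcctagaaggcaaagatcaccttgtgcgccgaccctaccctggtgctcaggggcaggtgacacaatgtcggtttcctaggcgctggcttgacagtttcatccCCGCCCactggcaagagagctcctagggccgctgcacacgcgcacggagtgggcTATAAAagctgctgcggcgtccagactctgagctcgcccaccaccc
Ptger4, chr15:5244138-5244437, minus strand: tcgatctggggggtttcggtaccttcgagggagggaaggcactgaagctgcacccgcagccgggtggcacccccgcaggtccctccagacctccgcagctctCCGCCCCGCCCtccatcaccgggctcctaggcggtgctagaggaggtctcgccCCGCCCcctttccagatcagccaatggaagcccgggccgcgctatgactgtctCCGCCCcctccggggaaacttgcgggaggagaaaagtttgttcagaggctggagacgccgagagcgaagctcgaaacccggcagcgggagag

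The Ptgs2 window held the CRE motif at bases 13 to 18 after the annotated start, sharing 2 bases with an E-box at bases 17 to 22, and the C/EBP palindrome at bases -69 to -62. All positions are counted from the annotated start, and where transcription begins in these cells was not measured. Among 32851 windows of the same length, 7.51% held the CRE motif, 7.15% the E-box and 0.183% the palindrome, and of the 8 genes here only Ptgs2 held each of the 3. Hpgd alone of the 8 held the letters of the TATA box, at bases 5 to 10 after the annotated start and not before it. These letters stood in 13.6% of all windows. GC boxes stood in 7 of the 8 windows, all but that of Ptger2, and in 35.7% of all windows. The overlapping capitals in Ptger4 are 2 GC boxes that share a base. A match describes these letters and is not a binding site.

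Ptgs2, the inducible cyclooxygenase, was lower in both EXPD4 and TPA arrays than in CTRL arrays. Its leading probe set read 7.63, 7.46 and 6.60 in EXPD4 arrays, 6.87 and 7.54 in TPA arrays, and 8.65, 8.18 and 8.85 in CTRL arrays. No EXPD4 or TPA array reached the lowest CTRL array, while EXPD4 and TPA arrays overlapped. Ptgs2 fell by 1.33 ± 0.30 in EXPD4 against CTRL arrays (adjusted p = 0.0214), and by 1.36 ± 0.33 in TPA against CTRL arrays (adjusted p = 0.0195), which is signal 2.51-fold and 2.56-fold lower. Between EXPD4 and TPA arrays the difference was 0.03 ± 0.33 (adjusted p = 0.977), with a 95% interval of -0.72 to 0.78 that takes in changes of signal by up to 1.72-fold. The first call was lost without CTRL replicate 1 or 3 (adjusted p up to 0.0855), and the other without CTRL replicate 1 or 3 or TPA replicate 1 (adjusted p up to 0.136). The dimmer probe set of Ptgs2 was lower too, with -0.92 ± 0.16 in EXPD4 against CTRL arrays (adjusted p = 0.00783 over all probe sets by themselves), where 1 of 3 EXPD4 arrays was above the limit. In TPA against CTRL arrays it was at least 0.72 lower (adjusted p = 0.00176), with both TPA arrays under the limit. Cd14, a myeloid marker, was also called lower in EXPD4 and in TPA against CTRL arrays (adjusted p = 0.00675 and 0.00522). All EXPD4 and TPA arrays were under the limit for Cd14, so it was lower by at least 0.48 and at least 0.47. Of 8 macrophage and neutrophil markers 2 were called lower in each comparison, Cd14 among them, and its part in the Ptgs2 difference was not tested.

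**Figure D1:**
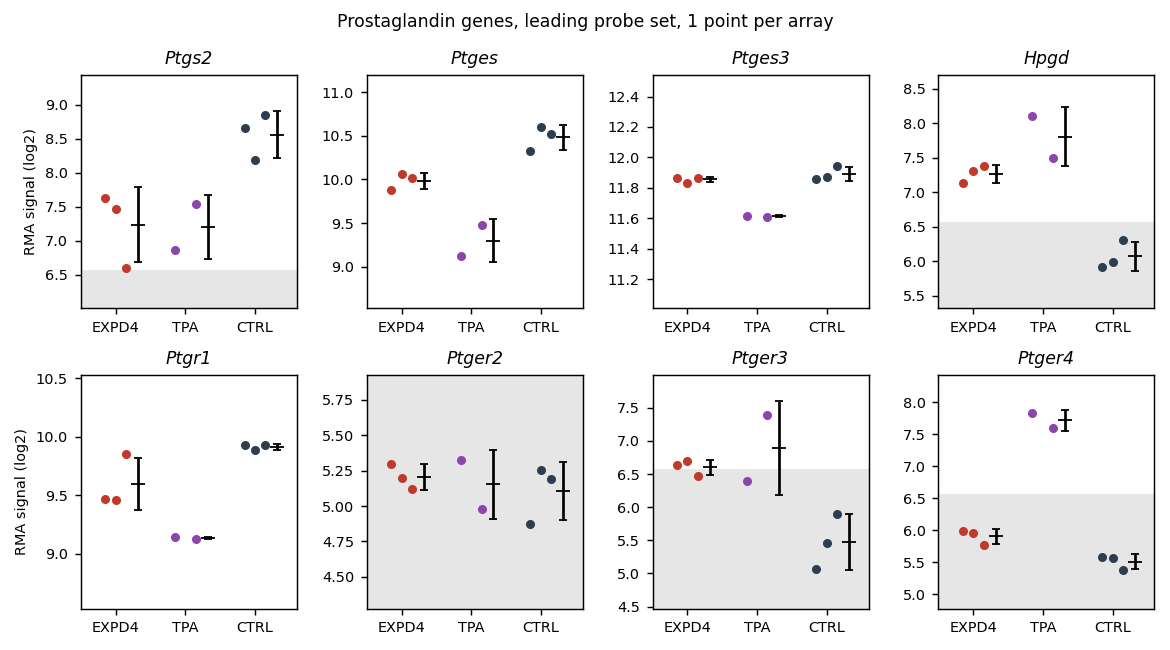
RMA signal (log2) of the leading probe set of 8 prostaglandin genes, with 1 point per array in the EXPD4 (n = 3), TPA (n = 2) and CTRL (n = 3) groups, bars for mean ± SD beside the points, and grey below the highest background limit, 6.55; each panel has its own range. The CTRL points lie above both other groups for Ptgs2, Ptges and Ptgr1 and below both for Hpgd, Ptger3 and Ptger4.

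Ptges, the inducible membrane-bound prostaglandin E synthase that couples to cyclooxygenase 2, was ordered by group, with TPA arrays lowest and EXPD4 arrays between. The leading probe set read 9.88, 10.06 and 10.02 in EXPD4 arrays, 9.12 and 9.48 in TPA arrays, and 10.33, 10.60 and 10.51 in CTRL arrays. No group overlapped another. Ptges fell by 1.18 ± 0.13 in TPA against CTRL arrays (adjusted p = 0.000292, 2.27-fold lower) and by 0.50 ± 0.11 in EXPD4 against CTRL arrays (adjusted p = 0.0239, 1.41-fold lower). It was higher in EXPD4 than in TPA arrays by 0.69 ± 0.13 (adjusted p = 0.0174). The other probe sets of Ptges gave the same signs and were called in all 3 comparisons, with differences of -1.22 ± 0.10 and -1.10 ± 0.10 in TPA against CTRL arrays (adjusted p = 8.23e-05 and 0.000126). The call of EXPD4 against CTRL was lost without CTRL replicate 2 or 3 or any 1 EXPD4 array (adjusted p up to 0.0891), and that of EXPD4 against TPA without EXPD4 replicate 2 or 3 or TPA replicate 1 (adjusted p up to 0.0927).

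Ptges3, which encodes both a cytosolic prostaglandin E synthase and the HSP90 co-chaperone p23, had the smallest spread of group means among the genes above background on every array. It read 11.87, 11.84 and 11.87 in EXPD4 arrays, 11.62 and 11.61 in TPA arrays, and 11.86, 11.87 and 11.94 in CTRL arrays. The TPA arrays were the lowest, and EXPD4 and CTRL arrays overlapped. Ptges3 fell by 0.28 ± 0.07 in TPA against CTRL arrays (adjusted p = 0.0221), a call that was lost without either TPA array or CTRL replicate 2 or 3 (adjusted p up to 0.0850), and its other probe set was not called (-0.25 ± 0.08, adjusted p = 0.0614). In EXPD4 against CTRL arrays the difference was -0.04 ± 0.06 (adjusted p = 0.817), with a 95% interval of -0.18 to 0.11. EXPD4 and TPA arrays differed by 0.24 ± 0.07 (adjusted p = 0.0857), which did not pass.

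Hpgd, the 15-hydroxyprostaglandin dehydrogenase that inactivates prostaglandin E2, moved the other way from Ptgs2 and Ptges. Its leading probe set read 7.13, 7.30 and 7.38 in EXPD4 arrays, 8.11 and 7.50 in TPA arrays, and 5.92, 5.99 and 6.31 in CTRL arrays. All 3 CTRL arrays were under the background limit and all 5 others above it, so the size is a lower bound. Hpgd rose by at least 0.76 in EXPD4 against CTRL arrays (at least 1.69-fold, adjusted p = 0.00231) and by at least 1.29 in TPA against CTRL arrays (at least 2.45-fold, adjusted p = 0.000288). EXPD4 and TPA arrays did not overlap but their difference of -0.53 ± 0.19 did not pass (adjusted p = 0.148, 95% interval -0.96 to -0.11). Without TPA replicate 2 it was -0.84 and passed (adjusted p = 0.0357), and without TPA replicate 1 it was -0.23 (adjusted p = 0.619). Both calls held in each of the 8 fits that left out 1 array. The second probe set of Hpgd was under the limit on all arrays and had the same signs, with calls in EXPD4 (0.87 ± 0.14, adjusted p = 0.00514) and TPA (1.09 ± 0.15, adjusted p = 0.00144) against CTRL.

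Ptgr1, the reductase that acts after Hpgd and also inactivates leukotriene B4, ran with the synthases and not with Hpgd. It read 9.47, 9.46 and 9.85 in EXPD4 arrays, 9.14 and 9.13 in TPA arrays, and 9.93, 9.89 and 9.93 in CTRL arrays. EXPD4 replicate 3 stood near the CTRL arrays, the other 2 EXPD4 arrays nearer to TPA. Ptgr1 fell by 0.78 ± 0.12 in TPA against CTRL arrays (adjusted p = 0.00194, 1.72-fold lower), and this held in each fit without 1 array. The difference in EXPD4 against CTRL arrays, -0.32 ± 0.11, did not pass (adjusted p = 0.0968, 95% interval -0.57 to -0.08), and without EXPD4 replicate 3 it was -0.45 and passed (adjusted p = 0.0100). EXPD4 and TPA arrays differed by 0.46 ± 0.12 (adjusted p = 0.0629), which did not pass.

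**Figure D2:**
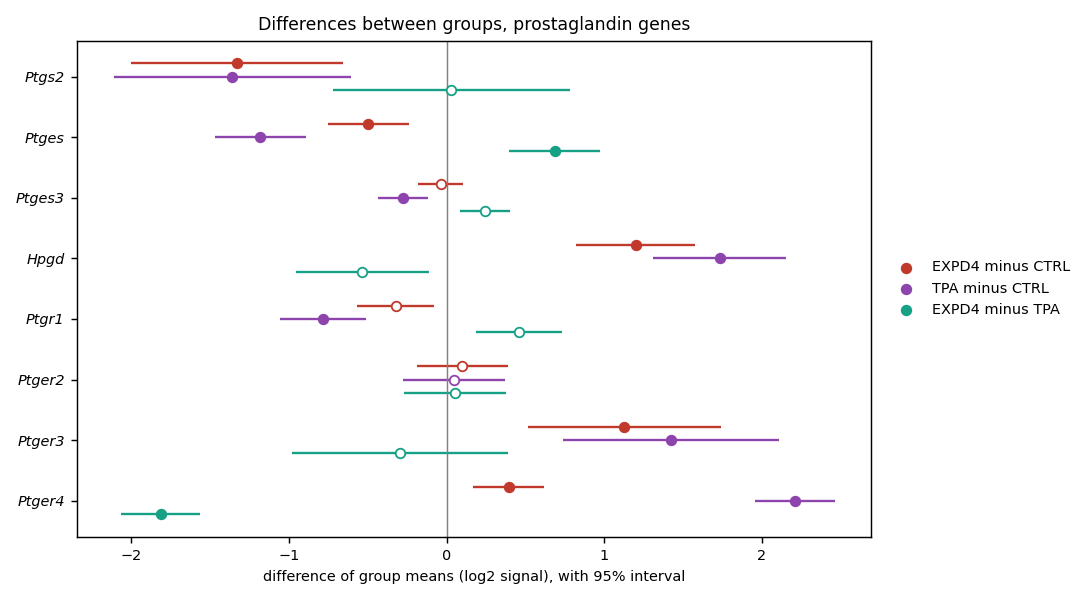
Differences of group means (log2 signal) for the 8 genes, with 95% intervals of the limma fit, for EXPD4 minus CTRL, TPA minus CTRL and EXPD4 minus TPA; filled points have an adjusted p under 0.05, and points are measured differences also where the text gives a bound. The intervals of Ptgs2 and Ptges lie below 0 and those of Hpgd and Ptger3 above 0 in both comparisons with CTRL, and Ptger4 has the widest gap between the comparisons, 2.21 in TPA and 0.40 in EXPD4 against CTRL.

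Among the receptors, Ptger4, which encodes the cyclic AMP-raising receptor EP4, had the clearest contrast and stood out in the arrays labelled TPA. Its leading probe set read 5.98, 5.96 and 5.77 in EXPD4 arrays, 7.83 and 7.61 in TPA arrays, and 5.59, 5.57 and 5.37 in CTRL arrays. Both TPA arrays were above the background limit, and every EXPD4 and CTRL array was under it. Ptger4 rose by at least 1.21 in TPA against CTRL arrays (at least 2.31-fold, adjusted p = 5.62e-06). In EXPD4 against TPA arrays it was lower by at least 1.26 (at least 2.39-fold, adjusted p = 9.23e-05). Both calls held in each fit without 1 array. The call of EXPD4 against CTRL (0.40 ± 0.10, adjusted p = 0.0349) lies wholly under the background limit, so no fold is given for it, and it was lost in 5 of the 8 fits without 1 array, with CTRL replicate 1, 2 or 3 or EXPD4 replicate 1 or 2 left out (adjusted p up to 0.115). The second probe set of Ptger4 was under the limit on all arrays, at 4.65 to 4.78 in EXPD4 arrays, 5.10 to 5.22 in TPA arrays and 4.64 to 4.70 in CTRL arrays, and was called higher in TPA against CTRL (0.49 ± 0.08, adjusted p = 0.00319).

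Ptger3, which encodes the cyclic AMP-lowering receptor EP3, was near the background limit. It read 6.64, 6.69 and 6.48 in EXPD4 arrays, 6.39 and 7.40 in TPA arrays, and 5.07, 5.45 and 5.90 in CTRL arrays. Of these, 2 of 3 EXPD4 arrays and 1 of 2 TPA arrays were above the limit and no CTRL array was. Ptger3 was called higher in EXPD4 (at least 0.09, adjusted p = 0.0287) and in TPA (at least 0.39, adjusted p = 0.0102) against CTRL arrays, and with signals raised to the limit neither comparison passed (adjusted p = 0.654 and 0.240). The EXPD4 call was also lost without CTRL replicate 1 or 2 or any 1 EXPD4 array (adjusted p up to 0.0928), and the TPA call without TPA replicate 2 (adjusted p = 0.0531). In EXPD4 against TPA arrays the difference was -0.29 ± 0.30 (adjusted p = 0.693, 95% interval -0.98 to 0.39), while the mean of both probe sets gave -0.48 ± 0.10 and passed (adjusted p = 0.0254). The 2 TPA arrays took opposite order on the second probe set of Ptger3, with 6.40 in replicate 1 and 5.66 in replicate 2.

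Ptger2, which encodes the other cyclic AMP-raising receptor, EP2, was under the background limit on all 8 arrays. It lay at 5.12 to 5.30 in EXPD4 arrays, 4.98 to 5.33 in TPA arrays and 4.87 to 5.25 in CTRL arrays, with all groups overlapping, so its signal cannot show whether the transcript changed.

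**Figure D3:**
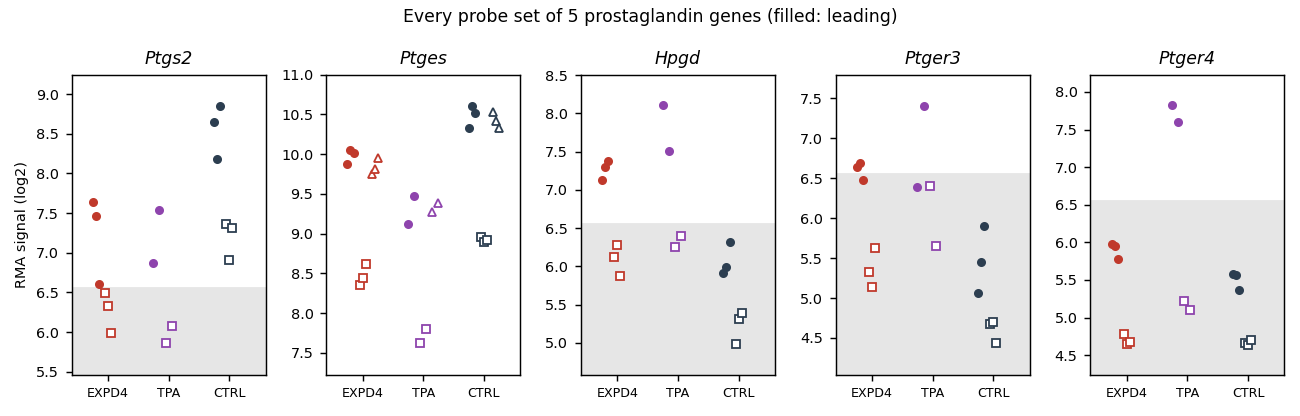
RMA signal (log2) of every probe set of Ptgs2, Ptges, Hpgd, Ptger3 and Ptger4 by group (EXPD4, TPA, CTRL), 1 point per array, with the leading probe set as filled circles, the others as open symbols, and grey below the highest background limit, 6.55. The dimmer probe sets of Hpgd, Ptger3 and Ptger4 lie wholly in the grey range, and those of Ptgs2 and Ptges keep CTRL arrays highest.

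Counted over the 8 genes, 3 were called higher (Hpgd, Ptger3 and Ptger4) and 2 lower (Ptgs2 and Ptges) in EXPD4 against CTRL arrays, where 11.5% of all genes were called, 5.69% higher and 5.78% lower. In TPA against CTRL arrays 3 were called higher (Hpgd, Ptger3 and Ptger4) and 4 lower (Ptgs2, Ptges, Ptges3 and Ptgr1), where 20.8% of all genes were called, 10.2% higher and 10.6% lower. In EXPD4 against TPA arrays 1 was called higher (Ptges) and 1 lower (Ptger4), where 5.98% of all genes were called, 3.16% higher and 2.81% lower. The median difference over the 8 genes was 0.03, -0.12 and 0.04 in the 3 comparisons, and over all genes 0.01, -0.03 and 0.03. Of all genes, 32.9% were under the background limit on every array, beside 1 of the 8, Ptger2. Both comparisons with CTRL share the CTRL arrays. Of the 7 other probe sets of these genes, 6, 7 and 7 had the sign of the leading one in EXPD4 against CTRL, TPA against CTRL and EXPD4 against TPA, and none was called the opposite way.

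Transport of prostaglandins showed large changes among the pathway genes beyond the 8. Slco2a1, the transporter that takes prostaglandins up for inactivation, read 10.41, 10.25 and 10.38 in EXPD4 arrays, 9.79 and 10.20 in TPA arrays, and 11.36, 11.46 and 11.41 in CTRL arrays. It fell by 1.06 ± 0.11 in EXPD4 against CTRL arrays (adjusted p = 0.000575) and by 1.41 ± 0.12 in TPA against CTRL arrays (adjusted p = 8.85e-05), and both of its other probe sets were called lower in these comparisons. Those 2 probe sets were also called higher in EXPD4 than in TPA arrays (adjusted p = 0.0481 and 0.00847), where the leading one was not (adjusted p = 0.142). Markers of endothelial cells, which also express Slco2a1, averaged 6.35 to 6.76 in EXPD4 arrays, 6.02 to 6.17 in TPA arrays and 6.19 to 7.57 in CTRL arrays, and none of the 6 measured was called. They varied within groups. Cdh5 read 6.57, 8.39 and 8.42 in EXPD4 arrays, 6.44 and 6.96 in TPA arrays, and 9.73, 7.02 and 6.86 in CTRL arrays. Its difference in TPA against CTRL was -1.17 ± 0.86. The part of these cells in the Slco2a1 differences was not tested. Abcc4, an exporter of prostaglandin E2, went the other way, at 8.95 ± 0.24 in EXPD4 arrays, 8.81 ± 0.09 in TPA arrays and 8.22 ± 0.05 in CTRL arrays (SD, n = 3, 2 and 3). Its difference was 0.73 ± 0.12 in EXPD4 (adjusted p = 0.00450) and 0.59 ± 0.13 in TPA (adjusted p = 0.0117) against CTRL, the TPA call being lost without TPA replicate 1 (adjusted p = 0.0757). Cbr3, a carbonyl reductase, rose in EXPD4 arrays (0.28 ± 0.07, adjusted p = 0.0322), a call lost in 6 of 8 fits without 1 array (any 1 CTRL or EXPD4 array, adjusted p up to 0.113). In this list of 4 measured genes, 2 were higher and 1 lower in EXPD4 against CTRL, 1 higher and 1 lower in TPA against CTRL, and none called in EXPD4 against TPA, where Cbr3 was lowest in p (adjusted p = 0.0613).

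Among the other prostanoid synthases, the terminal enzymes went in both directions. Hpgds, the haematopoietic prostaglandin D synthase, read 7.72, 7.49 and 7.78 in EXPD4 arrays, 6.41 and 6.74 in TPA arrays, and 8.57, 8.05 and 8.24 in CTRL arrays. Of these, 1 of 2 TPA arrays and all EXPD4 and CTRL arrays were above the background limit. The 3 groups did not overlap, and Hpgds fell by 1.71 ± 0.17 in TPA (adjusted p = 0.000164) and by 0.62 ± 0.15 in EXPD4 (adjusted p = 0.0280) against CTRL, the EXPD4 call being lost without CTRL replicate 1 or 3 or any 1 EXPD4 array (adjusted p up to 0.0951). Among the Langerhans cell markers, 1 of 7 was called lower in EXPD4 against CTRL (H2-Ab1) and 2 of 7 in TPA against CTRL (H2-Ab1 and Mfge8). Among the macrophage and neutrophil markers, 2 of 8 were called lower in each (Cd14 and Cxcr2). Cxcr2 was under the background limit on every array, and Cd14 on every EXPD4 and TPA array. The part of either list in the Hpgds difference was not tested. Akr1b8, an aldo-keto reductase of a family with prostaglandin F synthase activity, averaged 9.68 ± 0.15 in EXPD4 arrays, 8.37 ± 0.34 in TPA arrays and 10.63 ± 0.10 in CTRL arrays. It fell by 2.26 ± 0.15 in TPA (adjusted p = 2.35e-05) and by 0.95 ± 0.13 in EXPD4 (adjusted p = 0.00248) against CTRL, and was higher in EXPD4 than in TPA arrays by 1.31 ± 0.15 (adjusted p = 0.00225), as was Hpgds by 1.09 ± 0.17 (adjusted p = 0.00797, lost without TPA replicate 1 at adjusted p = 0.0518).

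Prxl2b, a prostamide and prostaglandin F synthase, rose by 1.04 ± 0.09 in EXPD4 (adjusted p = 0.000333) and by 0.80 ± 0.11 in TPA (adjusted p = 0.000888) against CTRL. Cbr1, a carbonyl reductase that can turn prostaglandin E2 into F2α, was called in TPA against CTRL (0.42 ± 0.13, adjusted p = 0.0463) but in 1 of the 8 fits without 1 array, that without TPA replicate 2 (adjusted p up to 0.269 in the other 7). Of 9 measured synthases, 1 was higher and 2 lower in EXPD4, 2 higher and 2 lower in TPA against CTRL, and 2 higher in EXPD4 against TPA.

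Phospholipases A2, which supply arachidonic acid, were called for 1 of 12 measured members in EXPD4 against CTRL, 5 in TPA against CTRL and 1 in EXPD4 against TPA. This is 8.33%, 41.7% and 8.33% beside the 11.5%, 20.8% and 5.98% of all genes, shares that are not matched for brightness. Pla2g4a, the cytosolic enzyme with a preference for arachidonic acid, read 6.81, 6.76 and 7.01 in EXPD4 arrays, 7.54 and 7.35 in TPA arrays, and 6.61, 6.76 and 6.54 in CTRL arrays. The TPA arrays were highest, by 0.81 ± 0.11 against CTRL (adjusted p = 0.000997), and EXPD4 was lower than TPA by -0.58 ± 0.11 (adjusted p = 0.0177, lost without EXPD4 replicate 1 or 2 or TPA replicate 1, adjusted p up to 0.104). Its relatives Pla2g4e and Pla2g4f went opposite ways in TPA against CTRL arrays, with -1.22 ± 0.22 (adjusted p = 0.00420) and 0.76 ± 0.18 (adjusted p = 0.0160), and Pla2g4f was higher in EXPD4 against CTRL arrays too (0.78 ± 0.16, adjusted p = 0.0150). Without TPA replicate 1 the TPA call of Pla2g4f was lost (adjusted p = 0.106), and without CTRL replicate 3 or EXPD4 replicate 2 or 3 its EXPD4 call (adjusted p up to 0.0530). Pla2g12a, a secreted form, fell in TPA arrays (-0.38 ± 0.11, adjusted p = 0.0356), a call lost without CTRL replicate 2 or 3, EXPD4 replicate 3 or either TPA array (adjusted p up to 0.130). Pla2g3, another secreted form, was called higher in TPA against CTRL arrays (adjusted p = 0.0194) with every array under the background limit, so no fold is given. Of 12 measured members, 1 was higher in EXPD4 against CTRL, 3 higher and 2 lower in TPA against CTRL, and 1 lower in EXPD4 against TPA.

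In the lipoxygenase branch, Alox12b, the barrier lipoxygenase of differentiating epidermis, read 6.27, 6.48 and 6.54 in EXPD4 arrays, 6.33 and 5.86 in TPA arrays, and 7.24, 8.22 and 8.30 in CTRL arrays. It fell by 1.49 ± 0.26 in EXPD4 against CTRL arrays (adjusted p = 0.00774), with 1 of 3 EXPD4 arrays above the background limit. In TPA against CTRL arrays, where both TPA arrays were under the limit, it was lower by at least 1.44 (adjusted p = 0.00269). Alox12e, the epidermal 12-lipoxygenase of the mouse, was highest in TPA arrays, at 8.49 and 9.40, against 8.07, 7.16 and 7.51 in EXPD4 arrays and 7.14, 7.80 and 7.38 in CTRL arrays. It rose by 1.50 ± 0.33 in TPA against CTRL (adjusted p = 0.0120, lost without TPA replicate 2 at adjusted p = 0.0782). The difference of EXPD4 from TPA, -1.37 ± 0.33 (adjusted p = 0.0477), was lost without any 1 CTRL array, EXPD4 replicate 2 or 3 or TPA replicate 2 (adjusted p up to 0.200). Ltb4r1, the high-affinity leukotriene B4 receptor, fell by 0.75 ± 0.10 in TPA against CTRL (adjusted p = 0.000926) and was higher in EXPD4 than in TPA arrays (0.57 ± 0.10, adjusted p = 0.0145, lost without TPA replicate 1 at adjusted p = 0.0871). Of 10 measured genes, 1 was lower in EXPD4 against CTRL, 1 higher and 2 lower in TPA against CTRL, and 1 higher and 1 lower in EXPD4 against TPA.

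Of the 5 other prostanoid receptors measured, only Ptger1, which encodes EP1, was called, and only in TPA against CTRL arrays. It fell by 0.37 ± 0.10 there (adjusted p = 0.0373), a call lost without any 1 CTRL array, EXPD4 replicate 3 or TPA replicate 1 (adjusted p up to 0.242). Over all 40 measured of 45 listed pathway genes beyond the 8, of which 9 were under the background limit on every array, 4 were higher and 4 lower in EXPD4 against CTRL, 7 higher and 8 lower in TPA against CTRL, and 3 higher and 2 lower in EXPD4 against TPA. These are 20%, 37.5% and 12.5% of the 40, beside the 11.5%, 20.8% and 5.98% of all genes given above. Of all genes, 32.9% were under the limit on every array. Among the 9056 genes whose highest group mean was above the median of all genes, 2151, 3523 and 1189 were called in these comparisons. In each comparison that is a larger share than of all genes, and also a larger share than of the 40. The 40 were not filtered in this way, so the shares are not matched for brightness. The medians of the 40 were -0.06, -0.10 and 0.07.

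**Figure D4:**
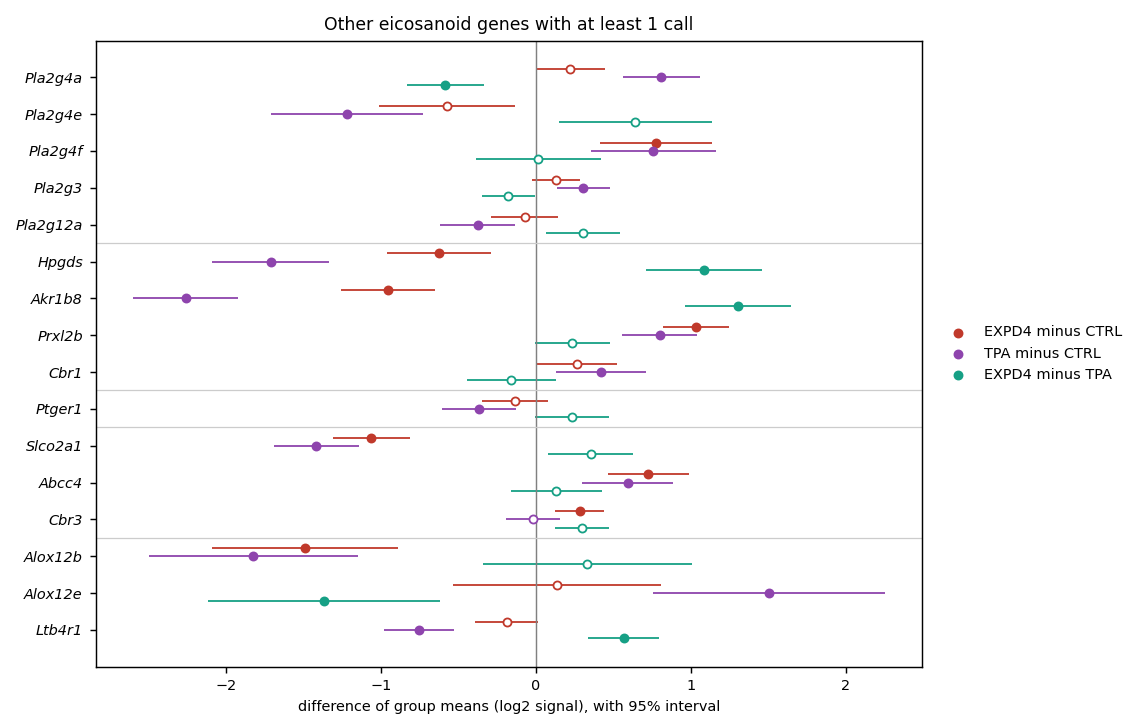
Differences of group means (log2 signal) with 95% intervals for the other eicosanoid genes called in at least 1 comparison, grouped from top to bottom as phospholipases A2, synthases, receptors, transport and catabolism, and the lipoxygenase branch; filled points have an adjusted p under 0.05. Akr1b8, Hpgds and Slco2a1 lie below 0 in both comparisons with CTRL, and Prxl2b, Abcc4 and Pla2g4f above 0.

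The genes whose signal ran most like that of a prostaglandin gene were taken for the 3 of them with the widest range of group means, as the 5 with the highest Pearson r over the 8 arrays. The arrays fall into 3 groups, so that genes with similarly spaced group means and little spread within groups have a high r. These are descriptions. For Ptger4 they were Tob1 (r = 0.986), Cish (r = 0.985), Rel (r = 0.984), Bmp2 (r = 0.983) and Wnt3 (r = 0.982), and 44 of 812 candidates had r above 0.95. Tob1 averaged 7.17 ± 0.16 in EXPD4 arrays, 8.34 ± 0.06 in TPA arrays and 6.99 ± 0.16 in CTRL arrays (SD, n = 3, 2 and 3). For Hpgd they were Ccdc88c (r = 0.987), Ephx1 (r = 0.982), Cyld (r = 0.980), Heca (r = 0.980) and Sh3rf2 (r = 0.978). Ephx1 averaged 9.78 ± 0.03 in EXPD4 arrays, 10.17 ± 0.10 in TPA arrays and 8.84 ± 0.11 in CTRL arrays, and 35 of 812 candidates had r above 0.95. For Ptger3 they were Hlf (r = 0.963), Slc39a8 (r = 0.938), Sema4g (r = 0.934), Gas1 (r = 0.933) and Pappa (r = 0.932), and 1 of 813 candidates exceeded 0.95.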

How the data were processed

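RNA of sorted basal cells was amplified for 25 cycles, labelled with biotin and hybridised to Affymetrix arrays, per the labels' protocols. The authors deposited log2 signals, for which the submitters' processing notes name RMA without a version. RMA sets arrays to a common distribution, which could hide a shift of all genes. Raw scans and detection calls were not used here. The table held 45141 probe sets, of which 28898 carried 1 gene symbol in a platform annotation of 2016, 551 several, 15588 none and 104 were array controls. As a test of row names, 233 pairs measuring 1 gene had a median r of 0.958 over the arrays, against 0.02 after a shift by 1 row.

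The groups were compared by limma (version 3.58.1, R version 4.3.3), with a mean for each of the 3 groups in a common fit (5 residual and 3.54 prior degrees of freedom), and the script was tested on simulated data. Where a group was under the background limit on all its arrays, a difference is a bound, the brighter group's mean minus that of the dimmer one raised to the limit. The members, lists, tests and background genes were chosen with earlier results of these data known. Beyond the 8 genes the text names, for each list and comparison, up to 4 called genes with the largest differences, and genes alike by the r given, among those whose group means span at least 1 and whose highest group mean is above the median of all genes, 7.11. Pla2g3, Itgb4, Krt15 and single marker genes of other cell types are named outside this rule, chosen after their values were seen. The brightest gene of each list, which the rule also asks for, is not named because levels of different probe sets are not comparable. Replicate numbers mark different mice and did not pair the arrays (r of residuals of same-numbered arrays -0.18 to 0.03).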

Additional observations from a re-analysis of the deposited data

How the results depend on the processing

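Over 14 calls of the 8 genes, 6 held in all 8 fits that left out 1 array, those of Hpgd, Ptges and Ptgr1 in TPA against CTRL, of Hpgd in EXPD4 against CTRL, and of Ptger4 in both comparisons with TPA. A fit that leaves out a TPA array has 1 array there, assumed to vary like the other groups. Over these fits the number of the 8 genes called was 2 to 5 in EXPD4 against CTRL (2 without any 1 CTRL array or EXPD4 replicate 1 or 2), 5 to 7 in TPA against CTRL and 1 to 3 in EXPD4 against TPA (1 without EXPD4 replicate 2 or 3 or TPA replicate 1). The number of all genes called was 1261 to 2076, 2613 to 3344 and 560 to 922 in these comparisons, the first falling by over 1.5 times without CTRL replicate 2 (1261) and the last without EXPD4 replicate 2 (636) or 3 (560) or TPA replicate 1 (568). With signals raised to the background limit 3 of the 8 were called in EXPD4 against CTRL, fewer because Ptger4 and Ptger3 lie near or under it. In EXPD4 against TPA, 1 of the 8 and 511 genes were called with only the 2 groups compared, where fewer arrays estimate the spread, and 4 of the 8 with a trended robust eBayes. With every probe set by itself, more tests were made and 2972 and 5816 were called in EXPD4 and TPA against CTRL, and 1508 in EXPD4 against TPA.

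With the replicate number as a block, 541 genes were called in EXPD4 against TPA, 1642 in EXPD4 against CTRL and 2829 in TPA against CTRL; of the 8 genes Ptgs2 in EXPD4 against CTRL (adjusted p = 0.0502) and Ptges3 in TPA against CTRL (adjusted p = 0.0848) lost their calls. Signs turned for values that were not called. Ptgs2 in EXPD4 against TPA was -0.00144 with array median centring and -0.31 to 0.37 without 1 array. Without 1 array, Ptger2 was -0.018 to 0.17 in EXPD4 against CTRL, -0.13 to 0.22 in TPA against CTRL and -0.12 to 0.23 in EXPD4 against TPA, and Ptger3 in EXPD4 against TPA was -0.80 to 0.21. No called value of the 8 genes turned in any alternative. With probe sets averaged by gene, Ptger4 lost its call in EXPD4 against CTRL (adjusted p = 0.102) and Ptger3 gained one in EXPD4 against TPA (adjusted p = 0.0254). Detection rests on the background genes being silent in these cells.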
